A study of Mus musculus with 2 samples.

Results

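The contactins are a family of 6 neural cell adhesion molecules, Cntn1 to Cntn6, and their transcripts were followed here in the late fetal ureter of mice that lack Rbpj in the ureteric mesenchyme. All spots of the arrays that carried one of these gene names were taken, which gave 9 probes for the 6 genes out of 39429 probes and 31870 gene or transcript names. The family was chosen by its measured Rbpj-cKO over control ratios on the same arrays, since Cntn6 and Cntn4 were known to be high there. The members' ratios are therefore given as a description and not as a test. Rbpj-cKO ureters came from NMRI embryos at E18.5 of the genotype Tbx18(cre/+);Rbpj(fl/fl). Control ureters came from NMRI embryos at E18.5 of the genotype Rbpj(fl/?), for which the labels list no cre. A floxed Rbpj allele is thus present in both groups, and only Rbpj-cKO embryos carry cre at 1 Tbx18 allele. Each of 2 arrays compared Rbpj-cKO with control RNA from embryos of one sex, called the male pair and the female pair below, with Rbpj-cKO in red on the male array and in green on the female array. The number of embryos behind an RNA is not in the labels, so the spread given is that between the 2 arrays and may be partly technical.

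Contactins are proteins of the immunoglobulin superfamily, with immunoglobulin domains, fibronectin type III domains and a lipid (GPI) anchor in place of a membrane-spanning segment. They act together with partners in the same or the facing membrane, among them the Caspr proteins (Cntnap genes), the L1 family and receptor tyrosine phosphatases, and they are best known for axon growth and the layout of myelinated axons. Contactin 1 and contactin 6 have also been described as ligands of Notch receptors in cells of the nervous system, and Rbpj is the transcription factor that cleaved Notch receptors join on DNA. Tbx18 is expressed in the undifferentiated mesenchyme of the young ureter, the source of the smooth muscle and connective tissue of the ureter.

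The arrays reported on the labelled tissue. Markers of smooth muscle (5 of 5), urothelium (7 of 7) and ureteric mesenchyme (5 of 5) were well above background in all 4 channels. The brighter Rbpj probe had log2 ratios of -1.58 in the male pair and -0.93 in the female pair. The other Rbpj probe had -0.42 in the male pair and -1.12 in the female pair. Between 65.6% and 70% of probes were well above background per channel, and no probe spot was saturated. The limma test over 20989 features called 27, of which 9 were higher and 18 lower with Rbpj-cKO. The median log2 ratio over all features was 0.01. The ratios of the 2 arrays, both as Rbpj-cKO over control, had a Pearson correlation of -0.18 over these features, and any dye effect enters the 2 with opposite sign. A difference in a whole-tissue RNA sample cannot tell more RNA per cell from more cells of a type, and this holds for every value below.

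Of the 6 contactin genes, 4 could be measured and 3 of these had higher levels in Rbpj-cKO than in control ureters on both arrays. Cntn6 had 2.70-fold, Cntn4 2.07-fold and Cntn1 1.44-fold higher levels, while Cntn3 differed in sign between the arrays. Cntn2 and Cntn5 were not well above background in any channel. The measured members passed a filter that asks for signal on both arrays in the Rbpj-cKO or in the control channel, and they were well above background in all 4 channels. Their median log2 ratio was 0.79, with 0.78 in the male pair and 0.79 in the female pair, beside 0.01 over all features. The 3 genes make 3 of 4 measured members with a ratio above 0 on both arrays, which 21.7% of all features had. Of the 4 measured members, 2 (Cntn6 and Cntn4) reached 1.5-fold with Rbpj-cKO in both pairs, as did 0.205% of all features. Cntn6 alone among the members was among the features past the limma threshold of 0.05, which 0.129% of features passed. By mean log2 ratio, Cntn6 ranked 10, Cntn4 24, Cntn1 199 and Cntn3 7034 from the top of the 20989 features. The call of Cntn6 was lost in 5 of 8 other ways of processing. These counts and ranks use the contrast that chose the family, so nothing is read from them.

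**Figure D1:**
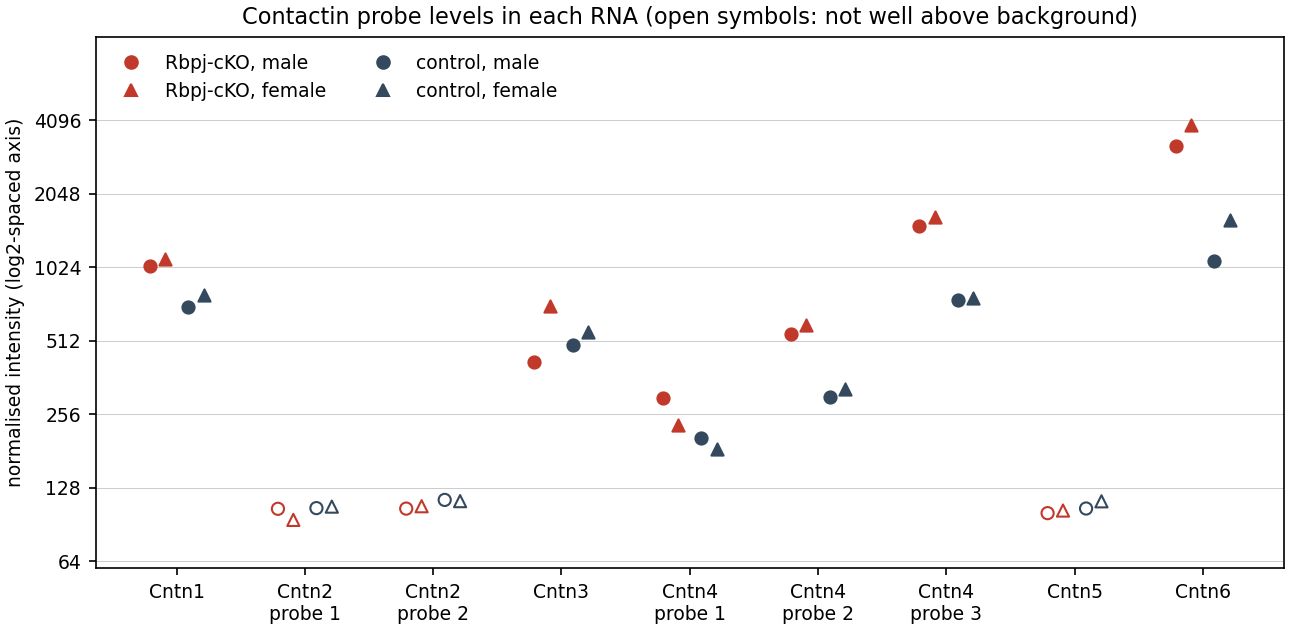
Normalised intensity (log2-spaced axis) of the 9 contactin probes in the Rbpj-cKO (red) and control (dark) RNA of the male (circle) and female (triangle) array, each point being 1 channel. At the probes of Cntn1, Cntn4 and Cntn6 both Rbpj-cKO points lie above both control points, at Cntn3 they lie on either side of them, and the open symbols of Cntn2 and Cntn5 are not well above background.

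Cntn6, also called NB-3, is known in the mouse for its part in the growth and orientation of neurites in brain and spinal cord. Its value rests on 1 probe in a single spot per array, at chr6:104798090-104798149 on the plus strand (mm9). This probe carries the largest ratio of the family, so its sequence is shown, with a longest run that it shares with a probe of another contactin in capitals.

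Cntn6 probe: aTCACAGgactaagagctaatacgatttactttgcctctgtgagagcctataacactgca

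That run is 6 bases, shared with the Cntn5 probe and with the brightest Cntn4 probe, and no run shared with another member is longer. The longest run it shares with any probe of another gene on the array is 12 of its 60 bases. The sequence has a GC content of 41.7% and 1 of its 3 forward frames is free of stop codons. The exon it lies in was not analysed here.

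The normalised intensity of Cntn6 was 3220 in male and 3904 in female Rbpj-cKO ureters, against 1083 in male and 1593 in female control ureters. Both Rbpj-cKO values lay above both control values. The log2 ratio was 1.57 in the male pair and 1.29 in the female pair (mean 1.43, SD 0.20, n = 2). The signal stood well clear of its local background. Before normalization it was 44.0 and 70.5 times the background in the male and female Rbpj-cKO channels, and 28.1 and 20.6 times in the control channels. Read as red over green, the ratios of the 2 arrays had a mean of 0.14 on the log2 scale, in which dye and sex cannot be told apart.

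Cntn4, or BIG-2, is known in the mouse for the guidance of olfactory sensory axons. It has 3 probes, which is the only case in the family with measured signal at more than 1 place. The probes are designed on RefSeq transcript variants and lie on the plus strand of chromosome 6 (mm9). Probe 1 is at chr6:106612625-106612684 and probe 2 at chr6:106624199-106624258, both assigned to variant 3. Probe 3 is at chr6:106647556-106647615 and assigned to variant 1. The first 30 bases of each are shown so that the probes can be told apart.

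Cntn4 probe 1: atgtctgcatggtccaaacaagtgtagaca
Cntn4 probe 2: ggcacagtttgtcctgtcttttccttgtgt
Cntn4 probe 3: tgtacgctgtcagccatcagtacaataatg

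Over the full 60 bases, probe 3 has a stop codon in each of its 3 forward frames. Probes 1 and 2 have 2 and 1 frames free of stop codons.

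All 3 Cntn4 probes were higher in both Rbpj-cKO RNAs. At probe 3, the brightest and the one that stands for the gene in the fit, the intensity was 1507 and 1639 in male and female Rbpj-cKO ureters, against 749 and 769 in male and female control ureters. The groups did not overlap there, and the values within each group lay close together. The log2 ratio was 1.01 in the male pair and 1.09 in the female pair (mean 1.05, SD 0.06, n = 2). At probe 2 the intensity was 545 and 596 in male and female Rbpj-cKO ureters, against 300 and 326 in male and female control ureters (mean log2 ratio 0.87, SD 0.01). Probe 1, the dimmest, had 298 and 232 in male and female Rbpj-cKO ureters, against 204 and 185 in male and female control ureters (mean log2 ratio 0.44, SD 0.16). The probes thus differed in size and not in direction. The 3 probes see the same RNA extracts and are not replicates of the genotype.

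The ratios of the 3 Cntn4 probes differed between ways of processing. The main setting adds an offset of 50 to the corrected signals, which draws the ratios of dim spots toward 0. With an offset of 10 the means were 0.53, 0.96 and 1.09 for probes 1 to 3, in the same order. With Agilent's processed signals, which differ in background correction, detrending and dye normalization together, they were 0.91, 1.26 and 1.15, so that probe 2 was the highest. The ratio of probe 1 then lay at 1.88-fold, against 1.35-fold in the main setting.

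Cntn1, also known as F3, is found at axons and at the paranodes of myelinated fibres, where it joins Caspr. Its single probe lies at chr15:92170470-92170529 (mm9, plus strand), has a GC content of 35% and a stop codon in every forward frame. Cntn1 had an intensity of 1035 and 1111 in male and female Rbpj-cKO ureters, against 705 and 789 in male and female control ureters. The groups did not overlap, with a smaller gap than at Cntn6 or at probe 3 of Cntn4. The log2 ratio was 0.55 in the male pair and 0.49 in the female pair (mean 0.52, SD 0.04, n = 2), just below the 1.5-fold mark on both arrays for this gene.

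Cntn3, also called PANG, lies on the minus strand of chromosome 6, with its probe at chr6:102113406-102113465 (mm9). Its intensity was 421 in male and 712 in female Rbpj-cKO ureters, against 491 in male and 556 in female control ureters. The Rbpj-cKO values lay on either side of the control values, so the groups overlapped. The log2 ratio was -0.22 in the male pair and 0.36 in the female pair (mean 0.07, SD 0.41, n = 2). Read as red over green, the 2 arrays gave a like value, with a mean of -0.29. Sex and dye orientation cannot be told apart with these arrays.

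Cntn2, also called TAG-1, a protein of the juxtaparanodes of myelinated axons, has 2 probes on the minus strand of chromosome 1, and Cntn5, or NB-2, known for its role in the auditory pathway of the mouse, has 1 on chromosome 9. One Cntn2 probe, at chr1:134413648-134414916 (mm9), maps over 1269 bases although it is 60 bases long, so it spans at least 1 splice junction. At the 3 probes the raw signal was 1.05 to 1.35 times the local background in Rbpj-cKO channels and 1.12 to 1.81 times in control channels. Their normalised intensity was 94.6 to 108 in Rbpj-cKO and 105 to 114 in control ureters. No fold is given for them, since neither group was well above background. On these arrays the signal sets only an upper bound on both transcripts.

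**Figure D2:**
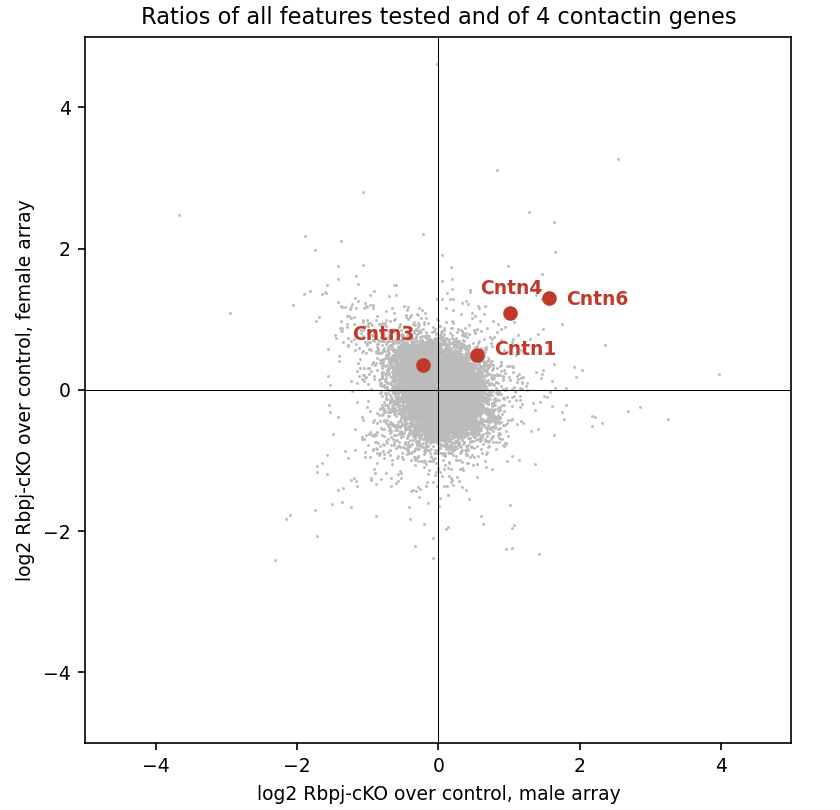
Log2 Rbpj-cKO over control on the male (horizontal) and the female array (vertical), with all 20989 features in grey and the 4 measured contactin genes in red. Cntn6, Cntn4 and Cntn1 lie in the upper right quadrant, where 21.7% of all features lie, and Cntn3 lies left of 0 on the male and above 0 on the female array.

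The level bands of the groups can be set beside those of the other features. Both Rbpj-cKO levels were above both control levels in 3 of the 4 measured members and in 14.9% of all features. The 3 were Cntn1, Cntn4 and Cntn6. By Euclidean distance between pairs of log2 ratios on the 2 arrays, the features with a gene symbol most like Cntn6 were Cyp2e1, Gdnf and Esr1, at distances of 0.10, 0.19 and 0.41. Cyp2e1 is a cytochrome P450, Gdnf the ligand that acts through Ret, and Esr1 the oestrogen receptor alpha. Their log2 ratios were 1.47 and 1.28, 1.39 and 1.34, and 1.76 and 0.93 on the male and female array. Most like Cntn4 were Cadps, a protein of dense-core vesicle release, the repressor Hey1, and the gene Gm9132, at distances of 0.05, 0.07 and 0.15. Likeness over 2 arrays is a description that rests on 2 ratios per feature. Of all features, 0.205% were at least 1.5-fold higher with Rbpj-cKO on both arrays.

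The Caspr and L1 partners of the contactins had medians near 0. Of the Caspr genes 3 of 7 could be tested, and none passed the limma test across all features or had an unadjusted p under 0.05. Cntnap1, the paranodal partner of contactin 1, had a log2 ratio of -0.04. Cntnap2, the partner of contactin 2, had 0.26 in the male pair and -0.27 in the female pair at its brightest probe. Another Cntnap2 probe, also well above background in all 4 channels, had 0.08 and 0.40. Cntnap4, which has been tied to interneuron synapses, was not well above background in any channel. All 4 genes of the L1 family were tested, and again none passed or had an unadjusted p under 0.05. Nrcam had a mean log2 ratio of 0.14, L1cam of 0.02, Nfasc of -0.03 and Chl1 of -0.15 at its brighter probe. The other Chl1 probe had a mean of 0.05. The median was -0.03 for the Caspr genes and -0.0014 for the L1 family, against 0.01 for all features. The Caspr median is the mean of Cntnap3, whose arrays disagreed, with -0.78 in the male pair and 0.71 in the female pair.

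Among the other described partners, 11 of 12 were tested and none passed, with 1 at an unadjusted limma p under 0.05. That one was Ptprz1, the receptor phosphatase that binds contactin 1, which had an intensity of 1394 and 1421 in male and female Rbpj-cKO ureters, against 1853 and 2031 in male and female control ureters. Its log2 ratio was -0.41 in the male pair and -0.52 in the female pair (adjusted p = 1 in the limma fit), and its second probe had -0.37 and -0.68. The groups did not overlap at the brighter probe, and the ratio ran opposite to that of Cntn1. The share of all features with both Rbpj-cKO levels below both control levels is not given, so nothing is read from this. Ptprg, the phosphatase that binds contactins 3 to 6, had 0.72 in the male pair and -0.61 in the female pair at its brightest probe, while its other probes had means of 0.02 and -0.03. The highest of the list was Aplp1, a relative of the amyloid precursor, at 0.24, and App itself, which binds contactin 4, had 0.02. The list's median was -0.0014.

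Notch receptors, described as binding contactin 1 and contactin 6, showed no common direction. None of the 4 passed the limma test or had an unadjusted p under 0.05. Notch4 had the highest mean log2 ratio, 0.31, and Notch2 the lowest, -0.28. Notch1 had 0.55 in the male pair and -0.55 in the female pair at its brighter probe and a mean of 0.06 at the other. The median of the 4 was -0.01.

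Other immunoglobulin adhesion genes of nervous tissue, such as Ncam1, the IgLON genes and the Robo receptors, gave 22 tested genes of 27. None passed the limma test, 2 had an unadjusted p under 0.05 (1 higher and 1 lower in Rbpj-cKO ureters), and 0 reached 1.5-fold in both pairs, beside 0.205% of all features. By brightest probe, the highest was Negr1 at 0.53 (0.84 in the male pair and 0.21 in the female pair). The lowest was Opcml at -0.53 (-0.10 and -0.95), and both are GPI-anchored proteins of the IgLON family. A dimmer probe of Robo2 had a mean of 0.57, while its brightest had 0.09. The list's median was 0.03.

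**Figure D3:**
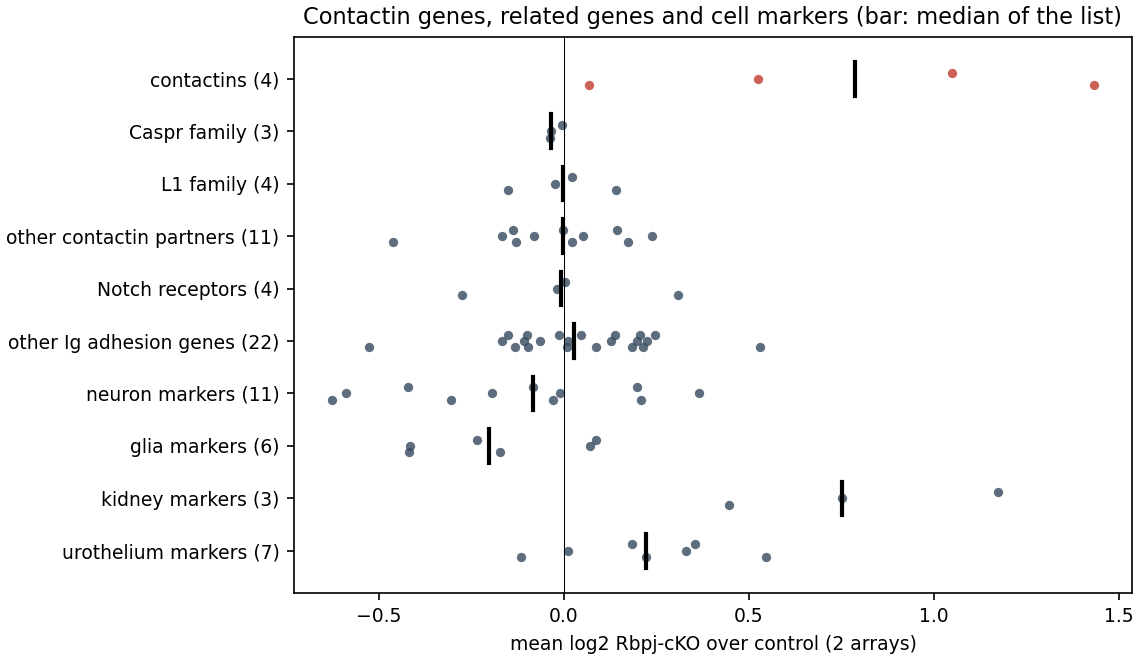
Mean log2 Rbpj-cKO over control of each measured gene in the contactin family, in related gene lists and in lists of cell markers. The marker lists drawn are those of neuron, glia, kidney and urothelium. The number of genes is in parentheses and the median is a bar. The contactin genes span 0.07 to 1.43 with a median of 0.79, and the medians of the lists of partners, Notch receptors and other adhesion genes lie between -0.03 and 0.03.

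Contactins are neural genes, so markers of the cells that could carry them are set beside the family. All 11 neuron markers were measured, with a median log2 ratio of -0.08 (0.22 in the male pair and -0.25 in the female pair). Of these 1 was higher and 2 were lower in Rbpj-cKO ureters on both arrays. Of all features 21.7% were higher on both arrays, and the share lower on both is not given. Their summed intensity was 44340 and 39260 in male and female Rbpj-cKO ureters, against 42080 and 55910 in male and female control ureters. Of 8 glia markers 6 were measured, with a median of -0.20, 2 being higher and 4 lower on both arrays. Their sums were 22710 and 26350 in male and female Rbpj-cKO ureters, against 30800 and 29990 in male and female control ureters. Neither list had a member past the limma test, and 1 neuron marker and 0 glia markers had an unadjusted p under 0.05. Single markers weigh on the neuron sum: Th, singled out after its values were seen, had 2876 and 3673 in male and female Rbpj-cKO ureters, against 1885 and 12670 in male and female control ureters.

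Markers of kidney, urothelium, smooth muscle, ureteric mesenchyme and endothelium were set beside the family as well. The 3 kidney markers Six2, a gene of nephron progenitors, and Cdh16 and Pax8, genes of kidney tubules, were higher in Rbpj-cKO ureters on both arrays, with a median of 0.75. Their sums were 4566 and 5049 in male and female Rbpj-cKO ureters, against 3226 and 2790 in male and female control ureters, and all 3 had an unadjusted p under 0.05 while none passed the limma test. Of the 7 urothelium markers 5 were higher on both arrays, with a median of 0.22. Their sums were 722800 and 764400 in male and female Rbpj-cKO ureters, against 588200 and 639000 in male and female control ureters. Smooth muscle markers were lower on both arrays in 5 of 5 cases, with a median of -0.35. The 5 ureteric mesenchyme markers had a median of 0.18, with 1 higher and 0 lower on both arrays. The 3 endothelium markers had a median of -0.05, with 0 higher and 0 lower on both arrays. No mesenchyme or endothelium marker passed the limma test or had an unadjusted p under 0.05. None of the urothelium or smooth muscle markers passed the limma test, and 1 of each had an unadjusted p under 0.05. A ratio above 0 on both arrays was found in 21.7% of all features. For an unadjusted p under 0.05, or a lower ratio on both arrays, the share over all features is not given. Nothing is therefore read from such counts in any list here. The part of these cell types in the contactin ratios was not tested.

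Cntn3, Cntn6 and Cntn4 lie in one stretch of chromosome 6, and the genes around them were compared. Chl1, an L1-family gene, has its probe 1.12 Mb below that of Cntn6, and Cntn4 has its brightest probe 1.85 Mb above it. Chl1 had a mean log2 ratio of -0.15 (0.01 in the male pair and -0.31 in the female pair) at its brighter probe. Beyond Cntn4 lies Il5ra, the interleukin 5 receptor alpha chain, with its probe 12.8 kb past probe 3 of Cntn4, and it had a mean of -0.12. Pdzrn3, the nearest gene on the far side of Cntn3, had -0.01.

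**Figure D4:**
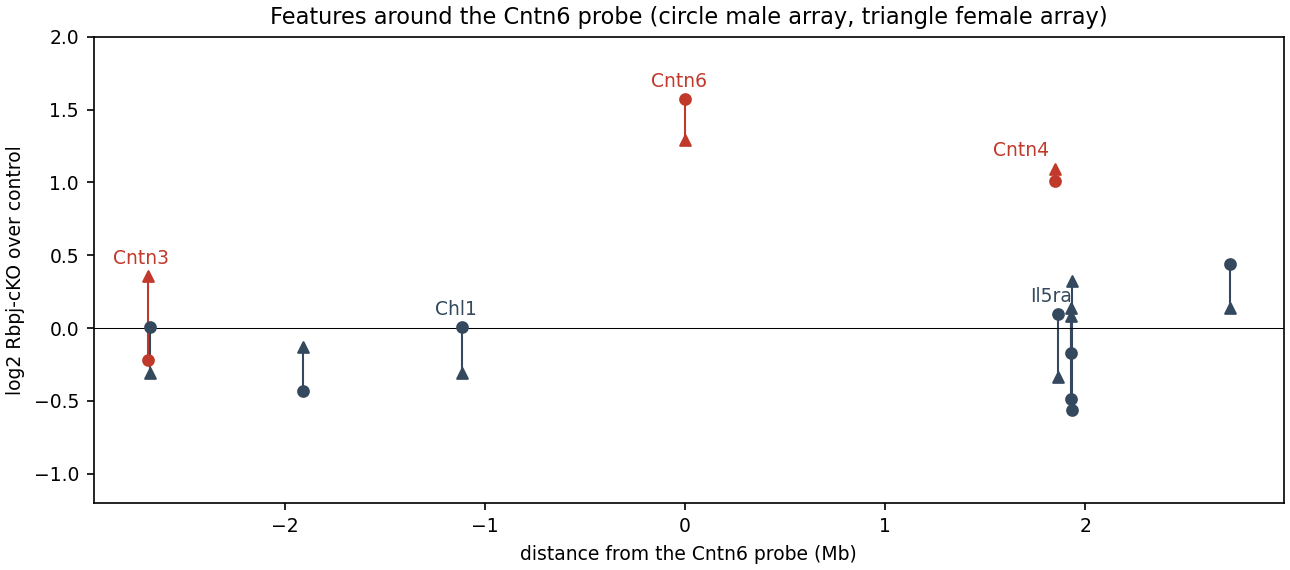
Log2 Rbpj-cKO over control on the male (circle) and female (triangle) array of each tested feature within 3 Mb of the Cntn6 probe, by distance from it in Mb. Cntn6 and Cntn4 lie above 1 on both arrays, whereas Chl1, left of Cntn6, and Il5ra, right of Cntn4, have means of -0.15 and -0.12.

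Over all members, 118 features had a probe within 2 Mb of a contactin probe. None passed the limma test and 4 had an unadjusted p under 0.05, with a median log2 ratio of -0.01. Beside Cntn1 lay the kinase gene Lrrk2 at 0.02 and Pdzrn4 at -0.26. Beside Cntn2 lay Tmem81 at 0.05 and Nfasc at -0.03, and Arhgap42, on one side of Cntn5 the nearest gene with a symbol in the RefSeq table, had 0.13.

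The stretch of 250 bases before the annotated start was read for Cntn6 and Cntn4, the members with the highest ratios, and searched for the motif of the deleted factor. The bases are RefSeq's on GRCm38.p6, plus strand, chr6:104492794-104493043 for Cntn6 and chr6:106118515-106118764 for the first of 2 starts of Cntn4. Capitals mark TGGGAA, the core of the motif that RBPJ binds, searched on both strands.

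Cntn6 promoter: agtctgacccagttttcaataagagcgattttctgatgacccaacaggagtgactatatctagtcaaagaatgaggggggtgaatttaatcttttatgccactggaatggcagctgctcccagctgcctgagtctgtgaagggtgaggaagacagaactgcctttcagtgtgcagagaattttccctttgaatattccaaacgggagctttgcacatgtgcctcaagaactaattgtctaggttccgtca
Cntn4 promoter: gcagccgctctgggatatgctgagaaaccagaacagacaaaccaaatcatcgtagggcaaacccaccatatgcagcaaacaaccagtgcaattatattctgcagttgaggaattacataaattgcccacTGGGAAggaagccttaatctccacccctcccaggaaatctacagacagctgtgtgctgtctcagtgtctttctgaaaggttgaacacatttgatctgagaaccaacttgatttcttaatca

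The core was absent from the Cntn6 window and present 1 time in this Cntn4 window, and it was absent from the window of the second Cntn4 start. Of 32851 such windows of mouse genes, 21.6% hold the core. The longer form GTGGGAA, which contains the core, was in no contactin window and in 5.42% of all windows. Among the other members, 1 window of Cntn3 held the core and those of Cntn1, Cntn2 and Cntn5 did not. A match is a match of letters in this window only.

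The ratios of the measured members kept their direction in each way of processing that was tried, other than Cntn3 on single arrays. Over 9 settings with both arrays, the mean log2 ratio of Cntn6 ran between 1.43 and 1.51, that of Cntn4 between 0.78 and 1.15, and that of Cntn1 between 0.52 and 0.59. Cntn3 ran between 0.00 and 0.09. Several of these settings bear on the test and not on the ratio. Changes of the dim-probe filter or of the prior variance left these ratios unchanged, and the series table repeats the processed signals. Averaging probes cannot move a gene with 1 measured probe, such as Cntn6. The ranges therefore rest on fewer distinct values than settings. Agilent's processed signals gave Cntn6 1.75 in the male pair and 1.26 in the female pair, and the authors' deposited series table holds the same values for it.

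**Figure D5:**
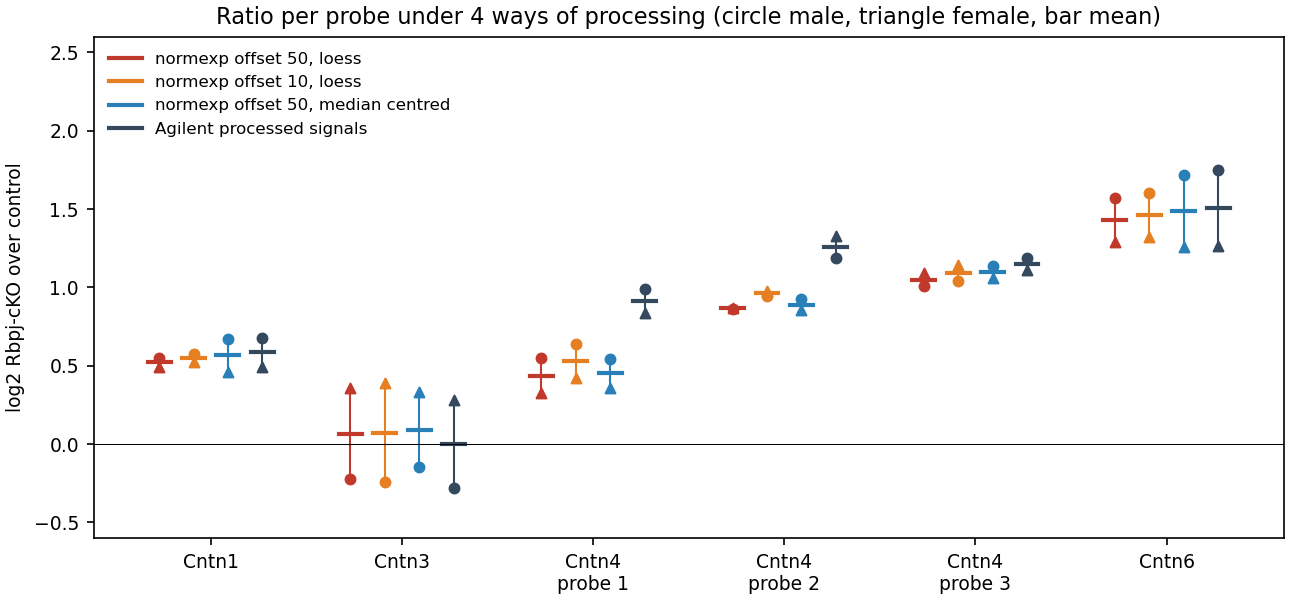
Log2 Rbpj-cKO over control of the 6 measured contactin probes under 4 ways of processing, with the male (circle) and female (triangle) array and their mean (bar). The means of Cntn6 lie between 1.43 and 1.51 and those of Cntn1 between 0.52 and 0.59, while those of Cntn4 probe 1 run between 0.44 and 0.91.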

How the data were processed

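RNA of 2 Rbpj-cKO and 2 control ureter samples was measured on 2 dye-swapped arrays. Scanner output was deposited as spot intensity, made with Agilent's Feature Extraction software (10.7.3.1), per the submitters' processing notes. Mean and background signals are unnormalized intensity, and processed signals are background-subtracted, detrended and dye-normalized intensity, per the file headers. The deposited log10 ratio sets red over green processed signal. The deposited series table holds a score per probe. Compared with the scanner output, this score is the fold between Rbpj-cKO and control processed signals, with a minus sign where Rbpj-cKO is lower: 99.8% (male) and 99.9% (female) of single-spot probes above background in all channels matched within 0.001 on the log2 scale. Its column medians were 1, and the submitters' steps behind it are not stated.

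Mean signals were corrected with normexp (offset 50) and loess-normalized within arrays, control spots at weight 0. Outlier spots (200 male, 274 female) were left out. Channel levels were scaled across arrays with Aquantile. Probes were kept if well above background on both arrays in either group. Of the probes, 26412 were named through RefSeq accessions (GRCm38.p6) and 13017 kept the file's name; a gene was represented by its brightest probe. Probe positions are on mm9. Features were tested with limma 3.58.1 in R 4.3.3 (two-sided), and p-values were adjusted over all 20989 features by Benjamini and Hochberg, with 1 residual and 10.3 prior degrees of freedom. The number of arrays limits the precision. The members and lists were chosen with earlier results of these data known. Named were all members, a set of partners, the highest and lowest of each partner list, the nearest measured genes and the 3 features most like Cntn6 and Cntn4. Alternatives covered the background offset, dye normalization, value table, dim-probe filter, probe summary, prior variance and single arrays.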

Additional observations from a re-analysis of the deposited data

Results flagged for a closer look

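Cntn3 and several of the other genes named here had opposite signs on the male and the female array, each gene read by its brightest probe. Cntnap3 was among them, with -0.78 in the male pair and 0.71 in the female pair. Dimmer probes of Cntnap2 and Notch1 that passed the filter were above 0 on both arrays. The difference between the arrays (male minus female, log2) was -0.58 for Cntn3. Among the partners and Notch receptors it was 0.20 for App, 0.31 for Chl1, -0.15 for Cntnap1, 0.52 for Cntnap2, 0.21 for L1cam, 0.24 for Nfasc, 1.10 for Notch1, 0.75 for Nrcam and 1.33 for Ptprg. Among neighbouring genes it was -0.52 for Arhgap42, 0.43 for Il5ra, -0.64 for Lrrk2, -0.13 for Pdzrn3 and -0.26 for Tmem81, and for the neuron marker Th it was 2.40. With 1 array per sex these differences were not tested, and sex and dye orientation cannot be told apart.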

How the results depend on the processing

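The direction of Cntn6, Cntn4 and Cntn1 held in each setting tried, though changes of the filter or the prior variance left their ratios unchanged. The limma call of Cntn6 held in 4 of 9 settings. Its adjusted p ran from 0.0101 to 0.988. Cntn6 missed the threshold with Agilent's processed signals and the series table (log2 ratio 1.51 in both), with median centring (1.49), without a filter on dim probes (1.43) and with probes averaged per gene (1.43). In the first 4 of these settings 0 features passed in either direction. With the mean of probes 10 passed (4 higher, 6 lower), while a prior variance that follows intensity gave 41 (16 higher). Cntn4 had 1.15 with processed signals and the series table, and 0.78 with the mean of its probes. Cntn1 had 0.59 with processed signals and the series table, and 0.57 with median centring. The family median was 0.87 with processed signals and the series table, 0.83 with median centring, 0.82 with offset 10, 0.65 with the mean of probes and 0.30 without the filter, which adds Cntn2 and Cntn5. On single arrays it was 0.78 to 0.79, Cntn6 had 1.29 to 1.57, Cntn4 1.01 to 1.09, Cntn1 0.49 to 0.55 and Cntn3 -0.22 to 0.36. No gene of the partner, Notch, adhesion or neighbour lists passed in any setting with a test. No separate paired analysis was added, since the fit on ratios within arrays already pairs the 2 RNAs. Signal over background limits Cntn2 and Cntn5, and 1 probe each Cntn1, Cntn3 and Cntn6.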
